A study of Rana omeimontis with 6 samples.

Results

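The enzymes that carry sugar from phosphofructokinase to lactate were followed in liver RNA of tadpoles of the frog Rana omeimontis. They were found by searching the protein name attached to each transcript cluster, here called a feature, for 9 enzyme names. The search found 58 of 121726 features, and 21 of these reached 1 FPKM (fragments per kilobase of transcript, scaled to the mapped fragments of the library) in at least 3 of the 6 libraries. Of the 21, 19 carried the name of a glycolytic enzyme, and the other 2 were enolase-phosphatase E1, an enzyme of methionine salvage, and mitochondrial enolase superfamily member 1, which share only a word with the pathway. The other 37 features stayed below the filter and were not tested.

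The study compared livers after ontogenetic fat accumulation (3 libraries) with livers before it (3 libraries), and asks how fat in the liver relates to growth and to energy use. Both stages were sampled from the same reserve in Sichuan Province. The labels name no strain, treatment, age or pooling for either stage. Whether each library is a separate animal is not stated, so the p-values reflect the spread among these 6 libraries and that spread may be technical.

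Glycolysis splits a phosphorylated hexose into a pair of triose phosphates and oxidizes them to pyruvate. Phosphofructokinase commits sugar to the pathway, pyruvate kinase closes it, and lactate dehydrogenase converts pyruvate and lactate into each other. The steps between them run in either direction and also serve gluconeogenesis, the making of glucose, which is a main task of the liver. Several enzymes exist as isoforms typical of a tissue in mammals: aldolase B and the liver/red-cell pyruvate kinase PKLR in liver, beta-enolase in muscle, lactate dehydrogenase A in tissue that makes lactate and B in tissue that consumes it.

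Markers of other tissues were present in the libraries. Features found by searching for names of pancreatic digestive enzymes numbered 48. They took 25.96% to 33.8% of the summed FPKM in the after libraries and 21.8% to 33.9% in the before libraries. The search also took in carboxypeptidase B2, at 43.2 to 85.8 FPKM, and metalloelastase features, one named for macrophages, that stayed below the filter. Hepatocyte markers were present in every library, with a summed level of 7136 to 7721 FPKM over 23 features after and 3229 to 6933 before. Members of that list differed, as serum albumin had 353 to 539 FPKM after, against 15.0 to 69.8 before, while serotransferrin-A overlapped, with 601 to 810 after and 582 to 1292 before. Skeletal muscle markers (14 features) summed to 102, 2.28 and 2.73 FPKM in after replicates 1, 2 and 3, against 4.64, 12.8 and 24.7 before. Cardiac muscle markers (9 features, a list added after the data were seen) summed to 335, 21.1 and 1.2 after, against 6.65, 6.31 and 5.64 before, so after replicate 1 stood apart. Erythrocyte markers (11 features) summed to 11881 to 12439 FPKM after and 7727 to 9726 before. Leukocyte markers (16 features) summed to 3095 to 6201 after and 4179 to 8678 before. Most of that sum was a single feature named lysozyme C-1-like, with 2885 to 6038 FPKM after and 3719 to 8419 before.

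Most glycolytic features had stage means within 1.5-fold of each other, while the muscle-type enolase ENO3 and lactate dehydrogenase A rose. Of the 21 features tested 3 rose after fat accumulation, against 4.64% of all 40548 features, and 0 fell, against 4% of all (limma, Benjamini-Hochberg adjusted p under 0.05 over all features). In either direction 8.64% of all features passed. An unadjusted p under 0.05 was met by 4 of the 21, against 10788 of all 40548 features (limma). The median log2 fold change, taken as after over before with 1 added to each FPKM, was 0.20 over the 21 features and -0.08 over all features tested. The stages did not overlap in 5 features that were higher after, against 15.7% of all features, and in 1 that was lower after, against 16.8% of all, or 32.5% in either direction. One of those 5, a low second GAPDH feature, passed the filter through the after libraries only. Among the features that rose, both ENO3 features needed after libraries to pass the filter. The first reached 1 FPKM before in replicates 1 and 2, and the second only in replicate 2. In 12 of the 19 glycolytic features the stage means lay within 1.5-fold of each other, and the share over all features was not taken. The rest all had the higher mean after. They were both features of liver-type phosphofructokinase, both ENO3 features, the main LDHA feature and the low second features of GAPDH and LDHA. The 19 together summed to 6024, 6007 and 4847 FPKM in after replicates 1, 2 and 3, against 5711, 6032 and 6161 in before replicates 1, 2 and 3, and the stages overlapped. That sum leaves out an abundant aldolase B feature that the name search does not reach. Its level was 1829, 1523 and 1162 FPKM after, against 2862, 2254 and 2537 before, and a total with it was not taken.

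**Figure D1:**
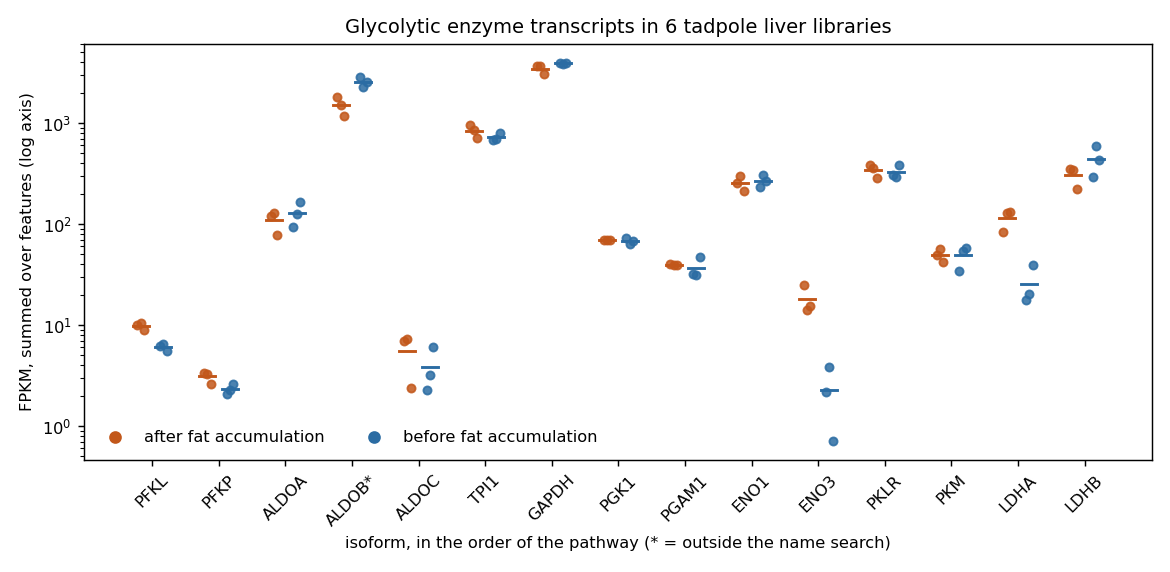
FPKM on a log axis of each glycolytic isoform, summed over its features, in the 3 after libraries (left of each pair) and the 3 before libraries (right of each pair), with points for libraries and bars for means. GAPDH stood highest in both stages, and ENO3 and LDHA were the isoforms whose stages lay farthest apart.

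Phosphofructokinase, the committing step, was the scarcest enzyme of the pathway. The 2 features named as its liver type (PFKL) and the 1 named as its platelet type (PFKP) summed to 13.4, 13.8 and 11.6 FPKM in the after libraries, against 8.22, 8.78 and 8.10 in the before libraries. The summed levels did not overlap, at a ratio of means of 1.54 (exact permutation test, two-sided, n = 3 each, p = 0.1, the smallest that 3 against 3 libraries can give, and 0.45 adjusted over 9 enzymes). No single phosphofructokinase feature passed the test. The first PFKL feature had 7.84, 3.46 and 3.98 FPKM after and 3.90, 1.81 and 3.85 before (log2 fold change 0.52, limma, adjusted p = 0.432). The second PFKL feature had 2.14, 7.05 and 4.96 after and 2.27, 4.68 and 1.67 before. The 2 features were high in different libraries. Features of the same name can share reads, and whether these are 1 gene was not tested. Summed before the fit, they gave a log2 fold change of 0.61 (limma, adjusted p = 0.102). PFKP had 2.61 to 3.38 FPKM after and 2.05 to 2.58 before, with no overlap (0.30, limma, adjusted p = 0.453). The muscle type was met only in a feature that missed the filter, with 0.28 to 0.39 FPKM in the after libraries, against 0.48 to 1.73 in the before libraries.

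Aldolase splits fructose bisphosphate into its triose phosphates. The feature named aldolase A, the form of muscle and most tissues in mammals, had 119, 128 and 78.4 FPKM after and 92.5, 126 and 165 before (log2 fold change -0.23, 95% interval -0.90 to 0.44, limma, adjusted p = 0.658). Aldolase C, the form of brain in mammals, was held by 2 low features, with means of 3.27 ± 0.806 and 2.21 ± 1.92 FPKM after and 2.30 ± 0.821 and 1.51 ± 1.43 before (SD, n = 3 each). The only feature with the full name fructose-bisphosphate aldolase B lay below the filter, at 1.67 FPKM in after replicate 1, 5.16 in before replicate 2 and 0 elsewhere. The liver form was instead held by a feature named simply aldolase B after Xenopus laevis, which the name search does not reach and which was added after its values were seen. It had 1829, 1523 and 1162 FPKM after, against 2862, 2254 and 2537 before. Every after library lay below every before library, at 59.0% of the before mean, and the test was just missed (log2 fold change -0.78, 95% interval -1.25 to -0.31, limma, adjusted p = 0.0574). The test was passed where each library was rescaled without the pancreatic features (limma, adjusted p = 0.0354) and with a filter at 5 FPKM (limma, adjusted p = 0.0343).

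Triosephosphate isomerase (TPI1), which interconverts the triose phosphates, was the most abundant member after GAPDH. It had 964, 852 and 706 FPKM after and 677, 699.6 and 805 before. The stages overlapped, and the difference did not pass (log2 fold change 0.20, 95% interval -0.18 to 0.59, limma, adjusted p = 0.485).

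GAPDH makes the first energy-rich phosphate of the pathway and is a common reference transcript. It took 60.8% to 62.6% of the summed FPKM of the 19 glycolytic features after and 63.2% to 68.9% before. That sum leaves out the aldolase B feature, and the share with it included was not taken. Its main feature, named after the frog Polypedates maculatus, had 3663, 3694 and 3032 FPKM after and 3937, 3829 and 3893 before. All 3 after libraries lay below the before libraries, but the difference did not pass, and its sign turned under quantile normalization (log2 fold change -0.17, 95% interval -0.47 to 0.12, limma, adjusted p = 0.436, and 0.024 under that scaling). A second feature, whose entries name the pig only, had 1.35, 1.59 and 1.23 FPKM after and 0.70, 0 and 0 before (log2 fold change 1.0, limma, adjusted p = 0.0919). That feature stood just inside the filter. Just outside it stood a second enolase-phosphatase E1 feature, listed at 0 in the 3 after libraries and at 1.96, 0.98 and 1.66 FPKM before.

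Phosphoglycerate kinase 1 (PGK1), which makes the first ATP of the pathway, had nearly the same level in both stages. It had 69.9, 69.7 and 68.9 FPKM after and 73.4, 63.0 and 67.8 before (log2 fold change 0.03, 95% interval -0.32 to 0.39, limma, adjusted p = 0.914). Phosphoglycerate mutase, which moves the phosphate within the molecule, was held by 1 feature, named bisphosphoglycerate mutase 1a in its first entry and phosphoglycerate mutase 1a of zebrafish in the later ones (PGAM1 in the plots). It had 39.8, 39.6 and 39.1 FPKM after and 32.3, 31.1 and 46.7 before (0.13, limma, adjusted p = 0.739). The after libraries were close together for both enzymes and lay within the range of the before libraries.

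Enolase makes phosphoenolpyruvate, and its isoforms parted. Alpha-enolase (ENO1), the form of most tissues in mammals, had 256, 301 and 214 FPKM after and 232, 307 and 265 before (log2 fold change -0.06, 95% interval -0.51 to 0.38, limma, adjusted p = 0.860). Beta-enolase (ENO3), here a feature named enolase 3 of Xenopus laevis, had 14.2, 7.62 and 9.73 FPKM after, against 1.44, 2.17 and 0.71 before. The stages did not overlap (log2 fold change 2.24 ± 0.336 SE, 95% interval 1.44 to 3.05, limma, adjusted p = 0.0157). The before library at 0.71 lay below 1 FPKM, so the feature needed an after library to pass the filter. Its difference is therefore given as a description. A second feature, named enolase B of a sturgeon, had 10.9, 6.41 and 5.62 FPKM after, against 0.75, 1.69 and 0 before (2.32 ± 0.431 SE, limma, adjusted p = 0.0262). Of the before libraries only replicate 2 reached 1 FPKM in it. It thus passed the filter through the after libraries, where it is high, and its difference is given as a description. Both features were highest in after replicate 1. Whether they share reads was not tested, so they are not counted as separate genes. The enolase total, most of it ENO1, was 281, 315 and 229 FPKM after and 235, 311 and 266 before (exact permutation test, two-sided, n = 3 each, p = 0.9).

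Muscle markers, like both ENO3 features, were highest in after replicate 1. Over the other libraries the order of the marker sums differed from that of ENO3. In after replicate 2 the cardiac list, at 21.1 FPKM with 8 of its 9 features above 0, stood above the 5.64 to 6.65 FPKM of the before libraries. The skeletal list there, at 2.28, stood below their 4.64 to 24.7. In after replicate 3 both lists were below every before library. Skeletal and cardiac muscle markers together summed to 437, 23.4 and 3.93 FPKM in after replicates 1, 2 and 3, against 11.3, 19.1 and 30.4 in before replicates 1, 2 and 3. ENO3 was at 14.2, 7.62 and 9.73 FPKM in those after libraries, against 1.44, 2.17 and 0.71 in the before libraries, and the part of muscle RNA in this difference was not tested. All 14 skeletal muscle features were above 0 in after replicate 1, 6 and 8 in the other after libraries, and 11 to 14 in the before libraries. Of the 9 cardiac features 8, 8 and 3 were above 0 in after replicates 1, 2 and 3, and 5 to 7 in the before libraries. Without after replicate 1 the log2 fold change of ENO3 was 2.02 (limma, adjusted p = 0.0422), while that of the second feature was 2.06 and lost its call (limma, adjusted p = 0.0665). Phosphoglycerate mutase 2, a muscle form, lay below the filter in 2 features. The higher was listed at 6.58 FPKM in after replicate 1 and at 0 in the other 5 libraries.

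**Figure D2:**
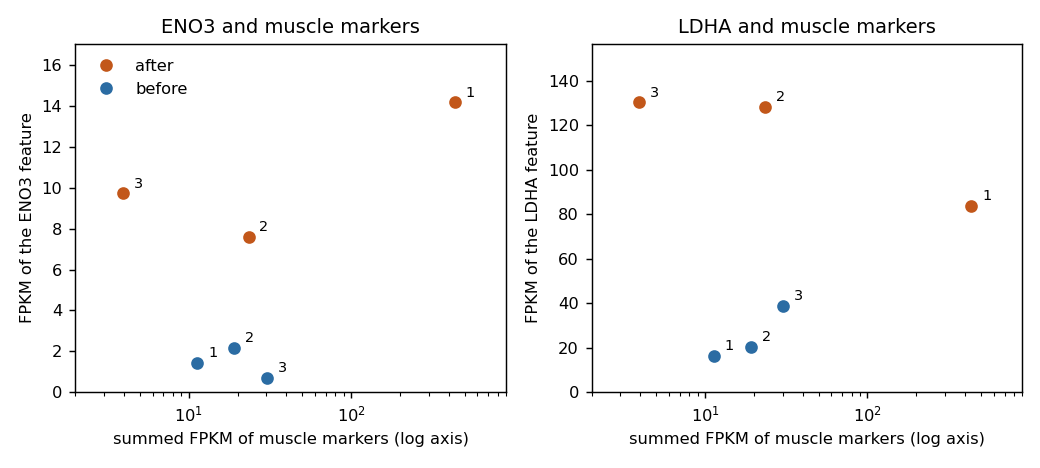
FPKM of the ENO3 feature (left) and of the LDHA feature (right), on linear axes from 0, against the summed FPKM of skeletal and cardiac muscle markers on a log axis, with 1 point per library and its replicate number beside it. After replicate 1 stands far to the right at 437 FPKM of muscle markers, and all 3 after libraries lie above all 3 before libraries for both enzymes.

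Pyruvate kinase, the closing step of the pathway, differed little. PKLR had 383, 361 and 283 FPKM after and 307, 293 and 380 before (log2 fold change 0.07, 95% interval -0.37 to 0.50, limma, adjusted p = 0.854). PKM, the form of muscle and growing tissue in mammals, had 49.2, 56.4 and 42.4 after and 34.0, 54.3 and 58.0 before (0.04, 95% interval -0.55 to 0.64, limma, adjusted p = 0.932). PKLR made up 86.5% to 88.6% of the 2 forms after and 84.4% to 90.0% before.

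Lactate dehydrogenase changed in its A chain. The main LDHA feature, named after Callithrix jacchus, had 83.9, 128 and 130.4 FPKM after, against 16.4, 20.5 and 38.9 before. The lowest after library stood at more than the highest before library, and the ratio of the stage means was 4.53 (log2 fold change 2.20 ± 0.351 SE, 95% interval 1.36 to 3.04, limma, adjusted p = 0.0184). After replicate 1, with its muscle markers, was the lowest of the after libraries here, and without it the log2 fold change was 2.41 (limma, adjusted p = 0.0339). LDHB, named after Nannospalax galili, had 350.2, 339 and 221 FPKM after and 294, 593 and 428 before, with overlap (-0.50, 95% interval -1.22 to 0.22, limma, adjusted p = 0.351). The A and B names of these frog features rest on such entries and were not tested further. The lactate dehydrogenase total was 434, 468 and 353 FPKM after and 312, 614 and 467 before (exact permutation test, two-sided, n = 3 each, p = 0.8). A second LDHA feature, whose entries name the mouse only, had 0, 1.38 and 1.48 FPKM after and 1.34, 0 and 0 before (0.44, limma, adjusted p = 0.632). As these are bulk samples, more cells of a type and more RNA per cell cannot be told apart, and the part of the marker lists above in these differences was not tested beyond the values given.

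The calls of ENO3 and LDHA did not hold in every fit that left out 1 library. Calls over all features were also fewer in such fits, which have fewer samples. The 1882 higher and 1620 lower after became 392 to 1184 and 299 to 917. With 1 library left out in turn, ENO3 kept its call in 4 of 6 fits, losing it without after replicate 3 (limma, adjusted p = 0.0635) and before replicate 1 (limma, adjusted p = 0.0579). LDHA kept its call in 2 of 6 fits, losing it without after replicates 2 and 3 and before replicates 1 and 2 (limma, adjusted p = 0.0713, 0.0742, 0.0591 and 0.0617), and the second ENO3 feature kept it only without before replicate 2 (limma, adjusted p = 0.0414). The count of 3 that rose was 2 without after replicate 1, before replicate 2 or before replicate 3, and 1 without after replicate 2. It was 0 without after replicate 3 or before replicate 1. There 4 and 5 of the 21 had an unadjusted p under 0.05 (limma), against 8520 and 8976 of all 40548 features. Over these fits the log2 fold changes stayed between 2.01 and 2.46 for ENO3 and between 1.95 and 2.55 for LDHA.

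**Figure D3:**
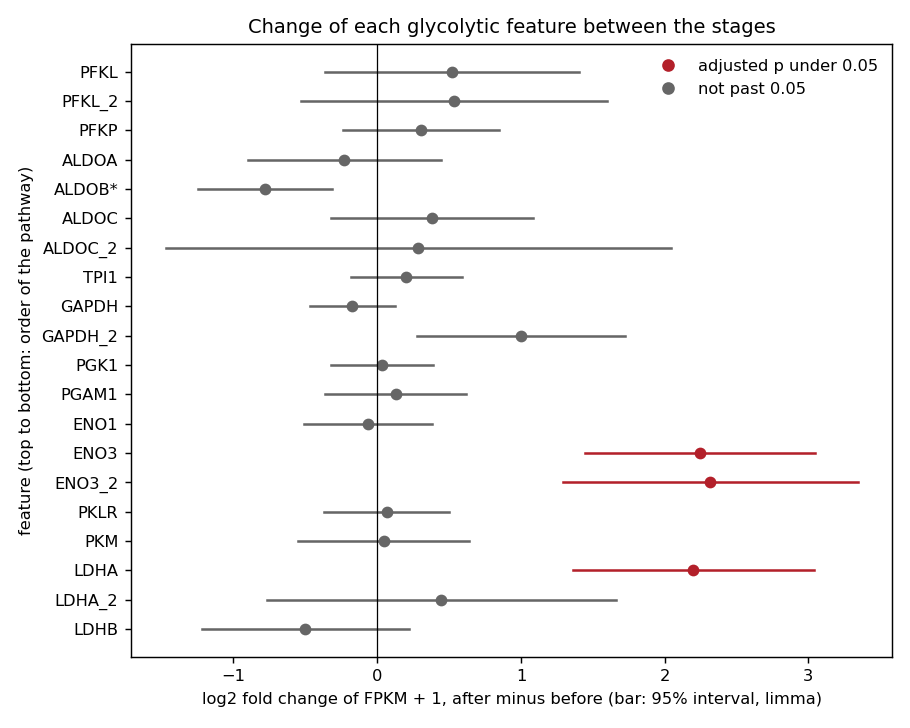
Log2 fold change of FPKM + 1, after minus before, of the 19 glycolytic features and of aldolase B (marked *), as points with 95% intervals from limma, from phosphofructokinase at the top to lactate dehydrogenase at the bottom. ENO3, the second ENO3 feature and LDHA, all above 2, are the features past an adjusted p of 0.05.

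Isoforms were set against each other within each library, since FPKM are scaled to transcript length. LDHA made up 19.3%, 27.7% and 37.3% of LDHA and LDHB together in after replicates 1, 2 and 3, against 5.67%, 3.33% and 8.33% in before replicates 1, 2 and 3. The log2 ratio of LDHA to LDHB was -1.40 ± 0.658 after and -4.12 ± 0.701 before, a difference of 2.73 (SD, n = 3 each). A two-sided exact permutation test gave p = 0.1, the smallest possible, and 0.133 adjusted over 4 pairs. LDHB remained the more abundant form in all 6 libraries. ENO3 made up 8.93%, 4.45% and 6.70% of ENO3 and ENO1 after, against 0.934%, 1.24% and 0.267% before. Its log2 ratio to ENO1 differed by 3.34 between the stages (two-sided exact permutation test, n = 3 each, p = 0.1, and 0.133 adjusted). ENO3 is here the sum of both its features, and with the more abundant of them alone the difference was 3.03. Both needed after libraries to pass the filter, so the difference is given as a description. The log2 ratio of PKLR to PKM was 2.79 ± 0.150 after and 2.77 ± 0.375 before, a difference of 0.019 (two-sided exact permutation test, n = 3 each, p = 0.9). The aldolase B feature stood above aldolase A in each library, 11.9 to 15.4 times after and 15.4 to 30.9 times before. In log2 units that ratio differed by -0.55 (two-sided exact permutation test, n = 3 each, p = 0.1, and 0.133 adjusted), against -0.25 without before replicate 1, and its closest libraries, after replicate 1 at 3.94 and before replicate 3 at 3.94, nearly met.

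**Figure D4:**
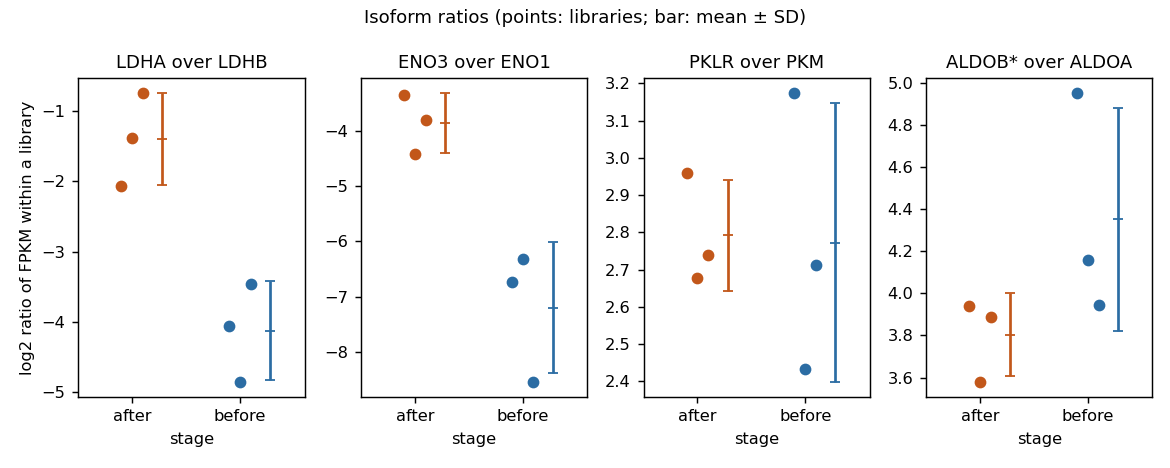
Log2 ratio of FPKM of 4 isoform pairs within each library, with points for libraries and bars for the mean ± SD of 3 libraries, after at the left and before at the right of each panel, on axes that differ between panels. The stages lie apart for LDHA over LDHB and for ENO3 over ENO1, nearly meet for aldolase B (marked *) over ALDOA, and overlap for PKLR over PKM.

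The order of FPKM levels along the pathway was much alike in both stages. After fat accumulation GAPDH (3464 ± 374 FPKM) led the aldolase B feature (1505 ± 334), TPI1 (841 ± 129), PKLR (342 ± 52.5), LDHB (303 ± 71.3) and ENO1 (257 ± 43.8), followed by LDHA (115 ± 27.1), ALDOA (108 ± 26.3), PGK1 (69.5 ± 0.529), PKM (49.3 ± 7.02), PGAM1 (39.5 ± 0.347), ENO3 (18.2 ± 6.05), PFKL (9.81 ± 0.799), ALDOC (5.48 ± 2.72) and PFKP (3.09 ± 0.419), each the sum over an isoform's features (SD, n = 3). Libraries of neighbours in that order overlapped between PKLR and LDHB, LDHB and ENO1, LDHA and ALDOA, and ALDOC and PFKP, and at no other step. Before fat accumulation the first 3 places were the same, with GAPDH at 3886 ± 54.8, the aldolase B feature at 2551 ± 304 and TPI1 at 727 ± 68.2 FPKM (SD, n = 3). LDHA then stood below PGAM1, at place 11 against place 7 after, and ENO3 was last, at place 15 against place 12 after. The features summed for ENO3 needed after libraries to pass the filter. Before, neighbours overlapped between LDHB, PKLR and ENO1, between PKM and PGAM1 and between PGAM1 and LDHA, and among PFKL, ALDOC, PFKP and ENO3, with LDHA and PFKL apart.

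Genes around the pathway were taken from a list of neighbouring steps, and 41 of its features passed the filter. Of these 5 rose, against 4.64% of all features, 2 fell, against 4% of all, and 34 did not pass (limma, adjusted p under 0.05), and their median log2 fold change was 0.0037, against -0.08 over all features. The stages did not overlap in 15 that were higher after, against 15.7% of all features, and in 6 that were lower, against 16.8%. Several of those higher after needed after libraries to pass the filter, so these counts are given as a description. They were both monocarboxylate transporter 12 features, monocarboxylate transporters 4 and 6, PFKFB4 and a feature named putative hexokinase HKDC1. Of those that rose or fell, monocarboxylate transporter 12 and the NAD-dependent malic enzyme passed the filter only through the stage where they are high.

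Upstream, entry of glucose into the pathway held no increase that passed. The features that name glucokinase, the liver hexokinase of mammals, lay below the filter, the most abundant at 0.95, 0.20 and 1.96 FPKM after and 0.20, 0.16 and 0 before. None of 7 hexokinase features passed, against 8.64% of all features in either direction, a share at which few calls or none among 7 would be met. Of 3 features named glucokinase regulatory protein, which holds glucokinase inactive in mammalian liver, 1 fell, against 4% of all features. It had 8.32, 5.80 and 4.76 FPKM after, against 47.8, 13.8 and 30.8 before (log2 fold change -1.99, limma, adjusted p = 0.0445). The other 2 had means of 13.7 and 9.77 FPKM after and 15.6 and 12.5 before, with overlap, and the call of the first was held in 1 of 6 fits that each left out a library (limma, adjusted p at most 0.137, when after replicate 3 was left out). Phosphoglucose isomerase, which makes fructose 6-phosphate, had 77.1, 74.5 and 59.6 FPKM after and 106, 110.5 and 115 before. All after libraries were lower, and the test was just missed (-0.65, 95% interval -1.04 to -0.26, limma, adjusted p = 0.0590). Fructose-1,6-bisphosphatase 1, which runs the phosphofructokinase step backwards in gluconeogenesis, had 157, 116 and 130.01 FPKM after and 239, 197 and 200.3 before, again without overlap (-0.66, limma, adjusted p = 0.0661). PFKFB1, the liver enzyme that sets the level of the main activator of phosphofructokinase, had 3.28, 5.02 and 3.85 FPKM after and 6.43, 6.94 and 9.24 before (-0.76, limma, adjusted p = 0.108). The other kept features of that family went the other way, and none passed. PFKFB3 had 1.36, 13.3 and 7.38 FPKM after and 3.23, 3.98 and 3.29 before (0.55, limma, adjusted p = 0.633). PFKFB4 had 2.05, 1.06 and 1.09 after and 1.05, 0 and 1.02 before (0.55, limma, adjusted p = 0.405). That feature needed an after library to pass the filter, so its difference is given as a description.

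Downstream of pyruvate, the pyruvate dehydrogenase complex, which turns pyruvate into acetyl-CoA in mitochondria, held 4 of the 5 increases. Of its 6 features 4 rose, against 4.64% of all features, and 0 fell, against 4% of all. The beta subunit of its first enzyme had 81.5, 98.0 and 67.8 FPKM after, against 36.8, 43.4 and 39.1 before (log2 fold change 1.02 ± 0.192 SE, limma, adjusted p = 0.0269). The 2 features of the alpha subunit had 70.8 to 82.8 and 13.0 to 19.1 FPKM after, against 30.01 to 37.6 and 4.45 to 6.44 before (limma, adjusted p = 0.0153 and 0.0301), and dihydrolipoamide S-acetyltransferase 34.3 to 42.7 after, against 17.7 to 20.5 before (limma, adjusted p = 0.0247). The after libraries lay above the before libraries in each of these. The 2 alpha features bear the same name, and whether they share reads was not tested, so they are not counted as separate genes. Dihydrolipoyl dehydrogenase, a subunit shared with other complexes, had 75.5 to 82.5 after and 57.5 to 70.2 before (0.34, limma, adjusted p = 0.226), and protein X overlapped (0.36, limma, adjusted p = 0.407). The larger alpha feature held its call in 3 of 6 fits that each left out a library (limma, adjusted p at most 0.0703, when after replicate 2 was left out). The other 3 lost theirs in all 6, where the largest adjusted p was 0.0958 for the beta subunit, 0.0997 for the smaller alpha feature and 0.0973 for the acetyltransferase, each when after replicate 2 was left out (limma). PDK4, a kinase that switches the complex off, had 11.4, 5.79 and 4.31 FPKM after and 9.59, 6.06 and 8.66 before, with overlap (-0.23, limma, adjusted p = 0.732), and the 3 features of PDK1 lay below the filter.

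Among 6 features of the monocarboxylate transporter family, 1 rose, against 4.64% of all features. It passed the filter through the after libraries only, so its difference is given as a description. It was named monocarboxylate transporter 12, known as a creatine carrier in mammals, and had 11.8, 7.77 and 8.47 FPKM after, against 0.44, 0.98 and 0.73 before (log2 fold change 2.58 ± 0.264 SE, limma, adjusted p = 0.00598). A second, lower feature of that name, which also passed through the after libraries only, had 1.72, 2.48 and 3.81 after and 0.66, 0 and 0.90 before, without overlap (1.28, limma, adjusted p = 0.0760). Monocarboxylate transporter 4, a lactate exporter of mammalian muscle and another feature that passed through the after libraries only, had 2.45, 1.62 and 1.16 FPKM after and 0.41, 0.15 and 0.54 before (0.99, limma, adjusted p = 0.0831). The feature named brain protein 44, an older name of a mitochondrial pyruvate carrier subunit, had 254, 269.99 and 207 after and 144, 196 and 194 before, without overlap (0.46, limma, adjusted p = 0.186). The NAD-dependent malic enzyme, which makes pyruvate from malate in mitochondria, fell. It had 0.42, 1.12 and 0.35 FPKM after, against 3.02, 3.40 and 2.14 before (-1.26, limma, adjusted p = 0.0484). Of the after libraries only that at 1.12 reached 1 FPKM. The feature thus passed the filter through the before libraries, where it is high, and its difference is given as a description. That call was lost in all 6 fits that each left out a library (limma, adjusted p at most 0.143, when after replicate 3 was left out).

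**Figure D5:**
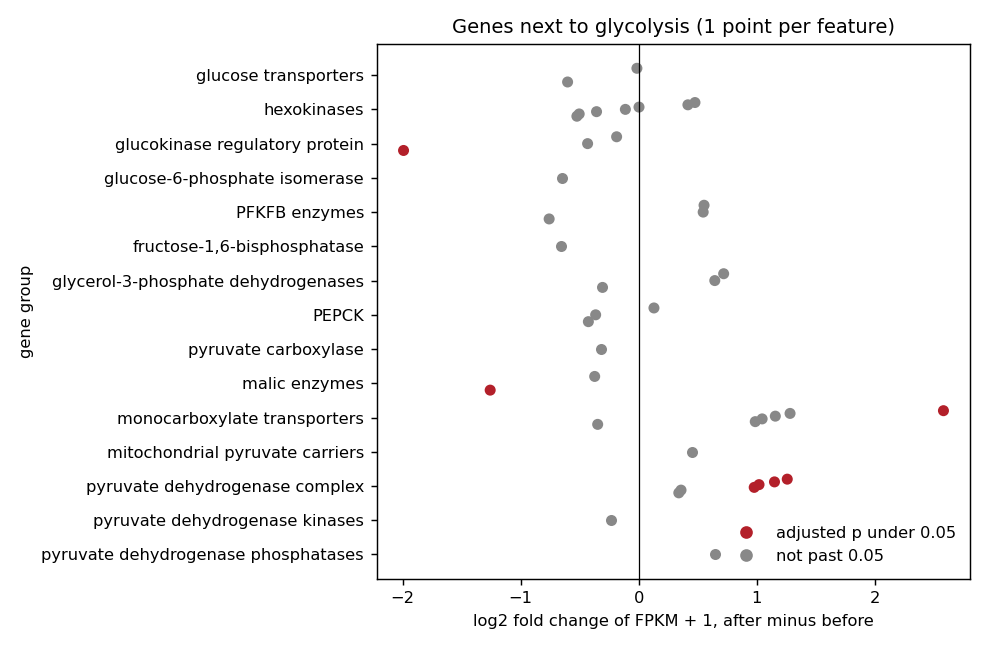
Log2 fold change of FPKM + 1, after minus before, of the 41 features of genes next to glycolysis, 1 point per feature, grouped by step from glucose entry at the top to pyruvate oxidation at the bottom. The 4 features of the pyruvate dehydrogenase complex past an adjusted p of 0.05 lie between 0.98 and 1.26, and monocarboxylate transporter 12 is farthest to the right at 2.58.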

How the data were processed

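The authors deposited FPKM values for transcript clusters, each with a protein description, in 1 matrix that, per the file headers, has a column for each of the 6 libraries. Per the labels' protocols the libraries were poly-A selected, paired-end Illumina libraries of total liver RNA. No genome or sequence was used. The program behind each of the assembly, alignment and FPKM steps is "not given in the sources used here". Summed FPKM lay between 1358665 and 1442121 per library. Dividing low FPKM values of each further library by those of after replicate 1 gave typical ratios from 1.03 to 1.06. These are ratios of FPKM and are not read as depth. The absolute depth is unknown, so counting intervals cannot be had, and precision is poorest for low values.

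Features with 1 FPKM or more in at least 3 libraries (40548) were tested on the log2(FPKM + 1) scale, two-sided, by limma (version 3.58.1, R version 4.3.3) with eBayes and a trend, with Benjamini-Hochberg adjustment over all of them at 0.05. This scale understates the change of low features. Sums and ratios were compared with exact permutation tests (scipy 1.17.1, Python 3.11.15), adjusted over 9 enzymes or 4 pairs. Named are the most abundant feature of each isoform, every member past the threshold, neighbouring genes past it and a few fixed ones. Further neighbours, and aldolase B, were chosen after their values were seen. Members and lists were chosen with earlier results of these data known. Alternatives covered the pseudocount, filter, scaling, trend, replicate block, summing of features and leaving out each library. Rescaling without pancreatic features was added after the data were seen.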

Additional observations from a re-analysis of the deposited data

How the results depend on the processing

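Under the alternatives ENO3, the second ENO3 feature and LDHA kept their direction throughout. The count of 3 glycolytic features that rose was 0 to 2 with 1 library left out. None of the features found by the name search fell under any setting, against 4% of all features in the main fit. The aldolase B feature, outside that search, passed as lower in the settings given with it above. Over the settings 3 to 12 glycolytic features had an unadjusted p under 0.05 in limma. With no filter these were 12 of 58, against 16046 of all 111336 features. With a filter at 5 FPKM they were 3 of 13, against 4792 of 12750. Over all features the counts higher and lower after, 1882 and 1620, were 634 and 433 with no filter, which tests 111336 features. With 1 library left out they were 392 to 1184 and 299 to 917, with fewer samples. The second ENO3 feature lost its call with a pseudocount of 0.1 (limma, adjusted p = 0.0866) and with no filter (limma, adjusted p = 0.0692).

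The replicate numbers were shared between the stages, and whether they pair the libraries is not known. Same-numbered libraries had correlations of -0.0049, -0.039 and -0.088 between their deviations from the stage means. With 3 libraries per stage such values cannot decide whether the design was paired. With the replicate block 1 glycolytic feature rose, LDHA (limma, adjusted p = 0.0477), and 194 and 145 features were higher and lower over all.

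With 1 library left out, the difference in log2 PKLR to PKM ratio ranged from -0.15 to 0.22, and summed FPKM, after minus before, turned sign for aldolase (-36.3 to 1.77), enolase (-15.1 to 28.02), lactate dehydrogenase (-122 to 29.2), phosphoglycerate kinase (-1.12 to 4.10) and pyruvate kinase (-4.00 to 49.4). Log2 fold changes of features far from the threshold also turned sign, between -0.28 and 0.99 for the second ALDOC feature, -0.19 and 0.061 for ENO1, -0.20 and 0.15 for ENOPH1 (enolase-phosphatase E1), -0.022 and 0.087 for PGK1, -0.022 and 0.20 for PKLR, -0.19 and 0.19 for PKM and -0.58 and 0.031 for PDK4. Quantile normalization gave 0.024 for GAPDH, 0.0027 for ENOPH1, -0.14 for PGK1, -0.0049 for PGAM1, -0.00047 for PKLR and -0.11 for PKM. Median-of-ratios scaling gave 0.014 for ENO1 and 0.040 for ENOPH1, equal summed FPKM 0.014 and rescaling without pancreatic features 0.016 for ENOPH1. The cause was not tested. Absolute depth is unknown, so features of a few FPKM are limited by counting in a way that cannot be stated.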

Other observations

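Of the 37 features below the filter, 4 were listed at 0 in every before library and 3 in every after library. One of them, named GAPDH of the blowfly Lucilia sericata, had 1.16, 3.01 and 0.62 FPKM after and was listed at 0 in the 3 before libraries.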
